A study of Mus musculus with 9 samples.

Results

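Cd4, Cd8a, Cd8b1, Zbtb7b, Runx3 and Tox, 6 genes that encode the T-cell coreceptors and factors that set which coreceptor a thymocyte keeps, were read in chromatin profiles of a mouse T-cell lymphoma. They were taken as a named list, 6 of 21883 protein-coding genes of the RefSeq mouse annotation on the autosomes and sex chromosomes, and the rule that defines the list uses no measured value. The series held 9 samples of thymic lymphoma cells from C57BL/6J mice in which MYCN drives the disease: 7 immunoprecipitations with 1 library per antibody (EZH2, SUZ12, H3K27me3, N-MYC, p300, H3K27ac and H3K4me3) and 2 inputs without antibody. All 9 thus share strain, tissue and driver, and normal thymocytes are not among them. The labels used here give no age, transgene promoter or animal for the immunoprecipitations. Each list gives peaks above the authors' threshold with a fold enrichment, the linear ratio of a peak's signal over background. With 1 library per antibody there is no replicate check and no p-value, and an absent peak means only that no call was made. Whether a call comes from all cells of a tumour or from some of them cannot be told apart in these bulk libraries.

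CD4 and CD8 are surface coreceptors that bind MHC class II and class I beside the T-cell receptor. Thymocytes pass through a stage with both coreceptors, then keep CD4 in the helper lineage or CD8 in the cytotoxic lineage. ThPOK, the product of Zbtb7b, maintains the helper programme and opposes Runx3, and Runx3 silences Cd4 and sustains Cd8 genes in cytotoxic cells. TOX is a nuclear factor needed for the development of CD4 lineage cells in the thymus. H3K4me3 marks active or poised promoters, H3K27ac marks active promoters and enhancers and is written in part by p300, and H3K27me3 is the repressive mark written by EZH2, which works in a complex with SUZ12.

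Read by histone marks alone at the outermost annotated start, the 6 genes fell into 3 forms. The p300, EZH2 and N-MYC calls divide the first of these forms further. The proximal Runx3 start had further calls and is described below. At the outermost start, Cd4, Zbtb7b, Runx3 and Tox had H3K4me3 and H3K27ac, Cd8a had H3K27me3 alone, and Cd8b1 had no call within 1 kb. By list, 4 of 6 genes had H3K4me3 there, against a background of 49.6% of the 17491 protein-coding genes whose strand is tabulated. H3K27ac was also called at 4 of 6 (background 49.8%) and p300 at 3 of 6 (background 38.3%). EZH2 was called at 1 of 6 (background 43.1%), N-MYC at 1 of 6 (background 31.6%), H3K27me3 at 1 of 6 (background 23.8%) and SUZ12 at none (background 12.2%). The 3 p300 calls were weak, with −log10 q of 3.92 at Zbtb7b, 4.75 at Runx3 and 4.95 at Tox, and none of them passed a q-value of 1e-05. With so few genes no share was tested against the background of its list, and none is read as higher or lower than it. The differences among the 6 genes carry the description that follows.

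**Figure D1:**
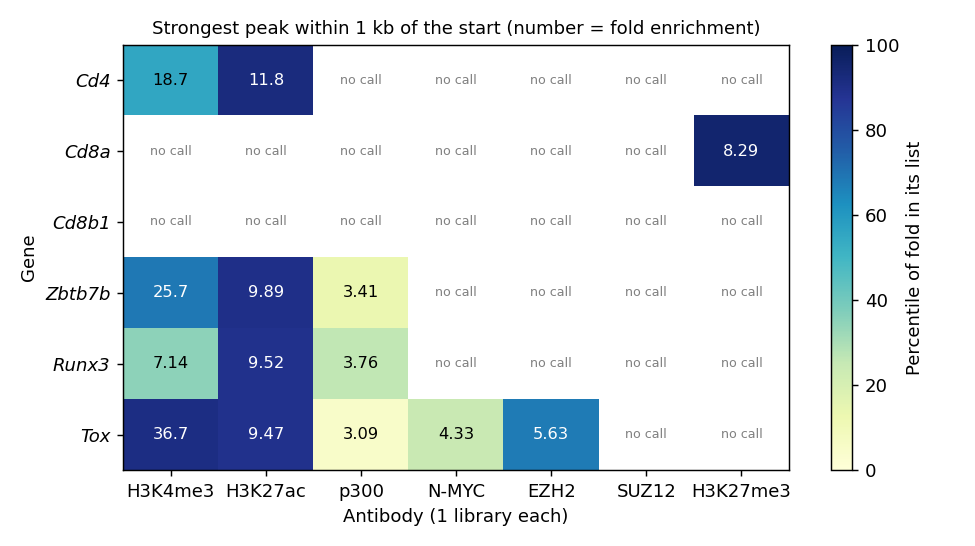
Strongest peak within 1 kb of each gene's annotated start (rows) in each of the 7 antibody lists (columns). The number is the authors' fold enrichment and the colour is its percentile among all peaks of that list; Cd8a has the H3K27me3 call of 8.29 alone, and Tox has calls in 5 lists.

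Cd4 (chromosome 6, 124864693 to 124888247, read on the minus strand, mm10 as in the files) carried the promoter mark pair without a call for EZH2, SUZ12, N-MYC or p300. Its H3K4me3 peak at the start was 2694 bp wide with a fold enrichment of 18.7, which lies at the 55.2 percentile of that list. The H3K27ac peak over the start was 4710 bp wide with a fold of 11.8 (92.1 percentile of a list of 87072 peaks against 16899, so the percentiles of the marks are not comparable). Both summits lay inside the gene, 347 bp and 309 bp past the start. No EZH2, SUZ12, H3K27me3, N-MYC or p300 peak met the start or any base of the gene body. This pair without other calls occurred at 3.63% of genes.

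The strongest acetylation near Cd4 lay upstream, between Cd4 and Lag3, the neighbouring gene for an inhibitory receptor that also binds MHC class II. An H3K27ac peak of 6527 bp reached from 17.576 to 11.05 kb before the Cd4 start, with a fold of 18.3 (97.3 percentile). Within its outer part, close to one end of Lag3, lay an H3K4me3 peak (fold 19.7), a p300 peak (6.19), an N-MYC peak (4.97) and an EZH2 peak (3.83). Their summits fell within 15.548 to 15.698 kb upstream of the Cd4 start, and this was the p300 call nearest to Cd4. Cd4 is known to have an enhancer upstream of its start in thymocytes. Whether this site is that enhancer was not tested.

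Calls in the 30 kb around Cd4 lay mostly close to neighbouring genes. Of 45 peaks that lay wholly outside the gene and its start, 29 came within 1 kb of the start of another protein-coding gene (either end where its strand is not tabulated), among them all 7 EZH2 and all 4 SUZ12 peaks. The upstream site near Lag3 is among these 29, and closeness does not assign a peak to a gene. The strongest H3K27me3 peak in the window (fold 12.4, 98.3 percentile) lay at P3h3 and Gpr162, past the Cd4 end. The nearest H3K27me3 base was 25.054 kb from the Cd4 start.

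Cd8b1 and Cd8a (chromosome 6, 71322788 to 71337492 and 71373427 to 71379171, both on the plus strand) lie in tandem and encode the beta and alpha chains of CD8. Over the 56.384 kb from the Cd8b1 start to the Cd8a end, the H3K27me3 list held 24 peaks with folds of 2.74 to 8.29 and a median of 4.36. They covered 24.0% of that stretch. The 6 other lists held no peak in it. The 30 kb windows of both genes also held no call in those 6 lists, and 10 of the 24 peaks belonged to both windows, so the genes are not independent of each other here.

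At Cd8a the strongest H3K27me3 peak began 190 bp inside the gene and ended 1597 bp past the start, with a fold of 8.29 (95.0 percentile). Smaller peaks with folds of 4.48 and 3.68 lay upstream, and a fold of 3.72 was called within the gene. The Cd8a body was 28.0% covered by H3K27me3, more than in 88.7% of protein-coding genes, of which 69.9% had no cover at all. Cd8b1 had no H3K27me3 within 1 kb of its start; its nearest peak lay 4.831 kb inside the gene. Its body held 6 peaks with folds of 3.41 to 5.47 and was 15.7% covered, more than in 84.8% of genes.

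H3K27me3 at Cd8a and Cd8b1 was called away from EZH2 and SUZ12 peaks. The nearest EZH2 peak was 66.354 kb from the Cd8a start and 50.345 kb from the Cd8b1 start. SUZ12 was farther, at 333.88 and 309.268 kb. The H3K27me3 list held 123056 peaks, against 18730 for EZH2 and 11100 for SUZ12, and no typical distance was computed. H3K27me3 at the start with neither EZH2 nor SUZ12 within the window was called at 10.1% of genes, and H3K27me3 as the sole call at 8.61%. The 35.934 kb between both genes, in which enhancers of the Cd8 genes are known from thymocytes and cytotoxic T cells, held 16 H3K27me3 peaks over 9625 bp and neither an H3K27ac nor a p300 call. The nearest H3K27ac peak lay 65.501 kb from the Cd8a start.

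The Cd8a promoter is shown as the sequence beside which H3K27me3 was called without other marks (RefSeq, GRCm38.p6, 5′ to 3′, the 250 bases before the start, chr6:71373177-71373426, plus strand). It held no CpG and 42.8% G and C, and 17.9% of the 32851 tabulated promoters had a lower G and C share. None of the 4 searched motifs was found in it, so no letter is in capitals.
Cd8a: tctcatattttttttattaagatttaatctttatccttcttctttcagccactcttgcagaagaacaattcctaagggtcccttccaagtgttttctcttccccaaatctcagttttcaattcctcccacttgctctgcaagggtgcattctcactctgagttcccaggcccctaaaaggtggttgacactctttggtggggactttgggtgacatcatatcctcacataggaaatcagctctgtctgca

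**Figure D2:**
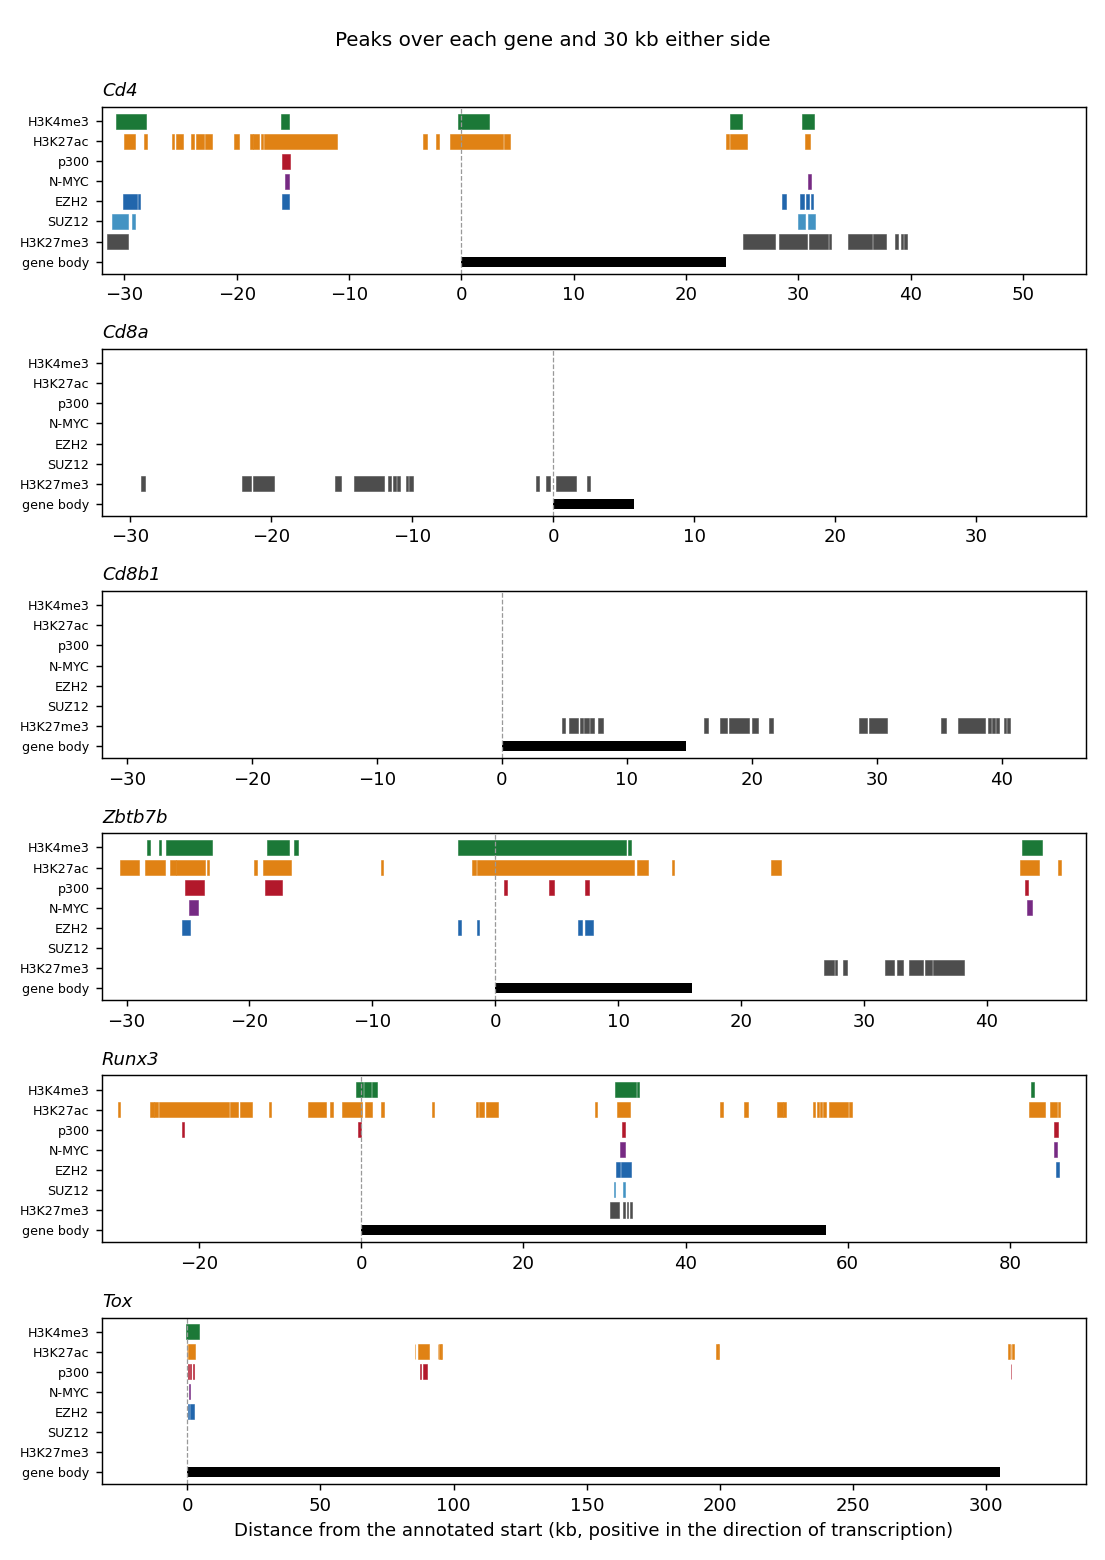
Position of every peak (coloured bars, 1 row per antibody) over each gene body (black bar) and 30 kb either side, by distance in kb from the annotated start. Cd8a and Cd8b1 show H3K27me3 bars alone, Zbtb7b is overlaid by a 13.687 kb H3K4me3 peak, and Runx3 has a group of calls in all 7 lists about 32 kb inside the gene.

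Zbtb7b (chromosome 3, 89377644 to 89393673, minus strand) carried the widest H3K4me3 peak of the whole list. It spanned 13687 bp and ranked 1 of 16899 peaks by width, with a fold of 25.7 (68.7 percentile), so it stood out by width and not by fold. An H3K27ac peak of 12762 bp lay over it, 73rd by width of 87072, with a fold of 9.89 (89.6 percentile). H3K4me3 covered 67.8% of the gene body and H3K27ac 77.7%, more than in 97.3% and 97.4% of protein-coding genes. Width was examined after the peaks had been seen. The peak also runs past the start into Gm15417, a long noncoding RNA gene, and its width cannot be assigned to Zbtb7b alone.

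The summit of this domain was not at the outermost start. H3K4me3 and H3K27ac had their summits at the same base, 7024 bp inside the gene, which is 1022 bp past the downstream start that RefSeq lists. RefSeq gives 2 starts in the promoter table, 5.707 kb apart. p300 was called 3 times inside the domain, with folds of 3.41, 3.84 and 4.28, all below the median p300 fold of 4.34. EZH2 was called 4 times, with folds of 3.10 to 4.37, likewise below its list's median of 4.79. No N-MYC, SUZ12 or H3K27me3 peak met the gene body, and the nearest N-MYC peak was 24.187 kb from the start, at Cks1b and Shc1. H3K27me3 first appeared 26.718 kb from the start, beyond the far end of the gene.

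The promoter at the downstream start is shown because the summits lie just past it (chr3:89387672-89387921, minus strand, same source and orientation). Capitals mark TGTGGT, the core bound by RUNX factors, found 89 bases before the start. That core, read on both strands, occurs in 14.0% of the 32851 tabulated promoters of the same length. The upstream Zbtb7b promoter held none of the motifs.
Zbtb7b, downstream start: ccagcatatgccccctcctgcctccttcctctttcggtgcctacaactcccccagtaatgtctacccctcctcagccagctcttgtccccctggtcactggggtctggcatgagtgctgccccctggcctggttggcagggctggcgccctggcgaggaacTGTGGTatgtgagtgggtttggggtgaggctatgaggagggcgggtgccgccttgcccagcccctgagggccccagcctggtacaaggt

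**Figure D3:**
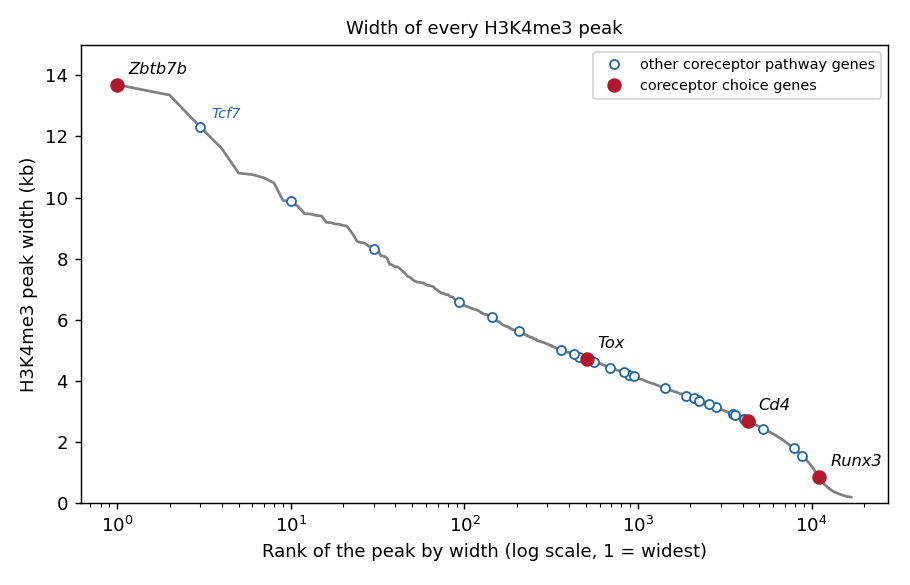
Width in kb of each of 16899 H3K4me3 peaks against its rank by width (log axis). Filled points are the widest peak at the start of the 4 coreceptor choice genes that have one, and open points are the other genes of the coreceptor pathway; Zbtb7b ranks 1 and Tcf7 ranks 3.

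Runx3 (chromosome 4, 135120645 to 135177990, plus strand) has a distal and a proximal promoter 31.9 kb apart, and they differed in their calls. In T cells the distal promoter is the one linked to cytotoxic lineage expression. At the distal start the H3K4me3 peaks were weak, with folds of 4.90 and 7.14 (24.3 and 35.0 percentile). H3K27ac had folds of 9.52 and 6.24 there, and a p300 peak of fold 3.76 had its summit 217 bp upstream. EZH2, SUZ12, H3K27me3 and N-MYC were not called.

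At the proximal start all 7 lists had a call within 1 kb, which was the case at 0.640% of 21237 starts of protein-coding genes. Among the other coreceptor regulation genes read below, Lef1 also had all 7 at its start, with SUZ12 at 7.85 and H3K27me3 at 9.40. At the proximal Runx3 start H3K4me3 had a fold of 22.5 over 2514 bp, and H3K27ac had a fold of 8.73. N-MYC (6.40), p300 (4.28) and the stronger EZH2 peak (6.54) had their summits 393, 399 and 422 bp past this start. A second EZH2 peak (4.95) had its summit 172 bp upstream. H3K27me3 was strongest upstream of the start, with a fold of 7.28 and its summit 668 bp before it, where SUZ12 had a fold of 3.72 at 626 bp. Downstream, 3 weaker H3K27me3 peaks (2.59 to 3.86) and a SUZ12 peak (3.38) lay inside the H3K4me3 peak. The summits of H3K4me3, H3K27ac, N-MYC, p300 and the stronger EZH2 peak lay just past the start, and that of the strongest H3K27me3 peak just before it. Both SUZ12 folds, before and after the start, were below that list's median of 3.99. Calls in bulk libraries do not show whether active and repressive marks were on the same molecules.

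**Figure D4:**
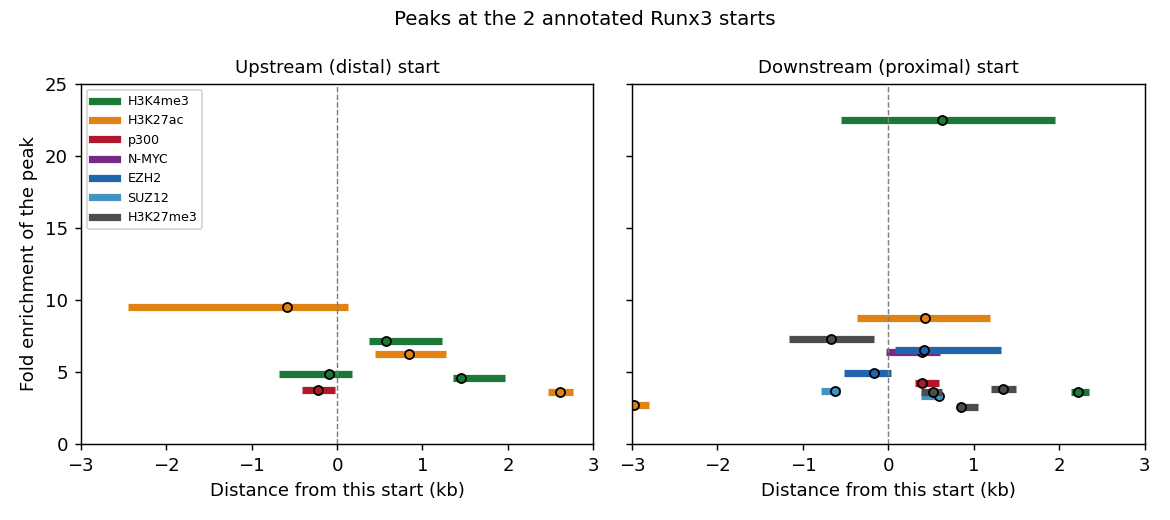
Peaks within 3 kb of the 2 annotated Runx3 starts: each bar spans a peak, its height is the fold enrichment, and the circle is its summit. The left panel (distal start) holds H3K4me3, H3K27ac and p300 alone; the right panel (proximal start) holds calls from all 7 lists, with H3K4me3 highest at 22.5.

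Both Runx3 promoters are shown because their base composition differs along with their calls (chr4:135120395-135120644 for the distal and chr4:135152295-135152544 for the proximal, plus strand, 250 bases before each start, same source). The distal promoter held 8 CpG and 65.2% G and C. The proximal one held 38 CpG and 78.8% G and C, with fewer CpG in 98.1% of tabulated promoters. Capitals mark ACCACA, the RUNX core on the opposite strand, which the distal promoter held at 134 and 126 bases before the start and the proximal one did not. A letter match shows no binding.
Runx3, distal: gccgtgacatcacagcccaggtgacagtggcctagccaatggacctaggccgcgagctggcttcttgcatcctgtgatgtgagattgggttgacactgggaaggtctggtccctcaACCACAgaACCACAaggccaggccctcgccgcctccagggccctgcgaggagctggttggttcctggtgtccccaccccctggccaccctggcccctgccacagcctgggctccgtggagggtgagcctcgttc
Runx3, proximal: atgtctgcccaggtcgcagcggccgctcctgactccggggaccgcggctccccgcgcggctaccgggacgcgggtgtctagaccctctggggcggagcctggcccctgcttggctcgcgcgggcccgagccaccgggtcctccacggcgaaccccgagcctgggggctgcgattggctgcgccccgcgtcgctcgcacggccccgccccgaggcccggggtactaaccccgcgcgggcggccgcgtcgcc

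The other motifs searched on both strands were CACGTG, the E-box bound by MYC proteins (6.02% of promoters), AGATAA for GATA factors (9.99%) and CTTTGAA for TCF and LEF factors (4.46%). None occurred in the 5 tabulated promoters of Cd8a, Zbtb7b and Runx3. The promoters of Cd4, Cd8b1 and Tox were not analysed here.

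Over the Runx3 gene and flanks 31 H3K27ac peaks were called, 17 of them over the body or start. The widest, 8593 bp, lay from 24.961 to 16.369 kb upstream with a fold of 14.1 (94.4 percentile), and ranked 270th by width of 87072. Within it a p300 peak of fold 3.28 was called. No start of another protein-coding gene lay within 1 kb of any of the 19 peaks outside the Runx3 body and start.

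Tox (chromosome 4, 6686353 to 6991557, read on the minus strand) had calls in 5 lists at its outermost start. Its H3K4me3 peak at the start was 4710 bp wide with a fold of 36.7 (90.7 percentile), the highest of the 6 genes. H3K27ac had a fold of 9.47 there. EZH2 was called at 2 sites inside the H3K4me3 peak, with folds of 5.63 and 6.60, N-MYC once with 4.33, and p300 3 times with 3.09, 3.78 and 4.09. The N-MYC and p300 folds were below the medians of their lists (5.38 and 4.34), whereas both EZH2 folds were above 4.79. These 5 lists together, without Polycomb partners, were called at 23.4% of gene starts, so the combination itself is common.

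Within the 305.205 kb Tox gene the strongest acetylation was far from the start. An H3K27ac peak of 3968 bp lay from 86.621 to 90.588 kb past the start, with a fold of 13.4 (93.7 percentile), and it carried 2 p300 peaks with folds of 4.40 and 4.15. H3K27ac covered 2.98% of the body, and H3K27me3 and SUZ12 none. The nearest H3K27me3 peak lay 654.201 kb from the Tox start, the longest such distance among the 6 genes.

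Over the gene body and 30 kb either side, calls were common in the background too. H3K27ac and H3K4me3 were called for 4 of 6 genes (70.8% and 67.5% of all genes). EZH2 (64.4%), p300 (58.1%) and N-MYC (54.0%) were likewise called for 4 of 6. H3K27me3 was called for 5 of 6 (58.4%), Tox being the exception, and SUZ12 for 2 of 6 (27.2%). Over the body alone the counts were 4 for H3K4me3 (54.0%), 4 for H3K27ac (57.9%), 3 for EZH2 (47.0%), 3 for p300 (42.0%), 3 for H3K27me3 (30.1%), 2 for N-MYC (35.3%) and 1 for SUZ12 (14.9%).

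Other genes of coreceptor regulation, 41 in all of which 34 had a tabulated strand, were read at their starts. H3K4me3 was called at 29 of 34 (background 49.6%), H3K27ac at 28 (49.8%), EZH2 at 27 (43.1%), p300 at 24 (38.3%), N-MYC at 19 (31.6%), H3K27me3 at 8 (23.8%) and SUZ12 at 6 (12.2%). The group that acts on the coreceptor genes or on Zbtb7b and Runx3, which includes Myb, Runx1, its partner Cbfb and the silencing factor Patz1, had EZH2 at 15 of 15 and N-MYC at 11 of 15. Remodellers and corepressors had EZH2 at 3 of 4 and N-MYC at 2 of 4, and signalling genes had each at 5 of 9. Effector lineage genes had EZH2 at 4 of 6 and N-MYC at 1 of 6. SUZ12 was called at 3 of the 15 and at 3 of the 6 effector lineage genes (background 12.2%), each time together with EZH2. The share of all genes with both was not computed, and the groups were not tested against each other. Of the 6 choice genes, Tox had EZH2 and N-MYC at the outermost start. Over every tabulated start EZH2 was called at 3 of 6 and N-MYC at 2 of 6. Further starts were tabulated for Zbtb7b and Runx3 only, and no share over all genes was computed by this rule. By fold, the highest H3K4me3 of the 34 was at Chd4, a nucleosome remodeller (49.3), and the lowest called at Klf2, an egress factor (7.02). H3K27me3 was highest at Gata3, which promotes the helper lineage (18.2), and lowest called at Egr2 (3.04).

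Likeness at the start was counted as the number of the 7 lists with the same call. Stat5b and Il7r, which carry interleukin-7 signalling, matched Cd4 in all 7. Themis and Stat5a matched Zbtb7b and Runx3 in all 7, and Stat5a and Stat5b share an H3K4me3 peak. The p300 calls in the patterns of Zbtb7b, Runx3 and Tox passed neither a q-value of 1e-05 nor a fold of 4. The patterns also hold for the outermost start only. No p300 was called within 1 kb of the downstream Zbtb7b start, and the proximal Runx3 start had all 7 lists. Tox was matched by 15 genes, among them Tcf7, Myb, Ikzf1, Lck, Zap70 and Id3. Prf1, the gene for perforin, matched Cd8a with an H3K27me3 fold of 8.28. Gzmb, the gene for granzyme B, matched Cd8b1 in having no call, a pattern at 29.9% of gene starts. The pattern of Zbtb7b and Runx3 occurred at 2.94% of gene starts. Marker genes outside the pathway list matched in all 7 lists too. Rag1, an immature thymocyte marker, and Lyz2, a myeloid marker, matched Cd8a, whose pattern occurred at 8.61% of gene starts. Dntt and Ptcra of immature thymocytes and Foxn1, Krt5 and Psmb11 of thymic epithelium matched Cd8b1. Cd79a of B cells and Alas2 of erythroid cells matched Cd4, and Cd5 of T cells matched Tox.

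The label of T-cell lymphoma was set against marker genes at their starts. All 8 T-cell markers with a tabulated strand had H3K4me3, H3K27ac and p300, against backgrounds of 49.6%, 49.8% and 38.3%. Cd3d and Cd3g share an H3K4me3 peak and have equal H3K27ac and p300 folds, so they are not independent. Lck, Bcl11b and Tcf7 were also counted among the pathway genes. None of the 4 immature thymocyte markers (Rag1, Rag2, Dntt, Ptcra) had H3K4me3 or H3K27ac. H3K4me3 was called at 1 of 3 B-cell, 1 of 3 myeloid, 1 of 5 thymic epithelial and 3 of 4 erythroid markers, and H3K27ac at 1 of 3, 1 of 3, 1 of 5 and 4 of 4 of them. Outside the T-cell markers p300 was called at 1 of 4 erythroid markers only. H3K27me3 (background 23.8%) was called at 1 of 8 T-cell, 2 of 4 immature thymocyte and 2 of 3 B-cell markers. It was also called at 2 of 3 myeloid, 1 of 5 thymic epithelial and 1 of 4 erythroid markers. The H3K4me3 folds were 4.74 at Cd79a, 6.81 at Cebpa, 19.3 at Epcam, and 9.38 to 19.8 at Alas2, Hba-a1 and Klf1. What other cells contributed to the calls above was not tested.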

How the data were processed

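ChIPmentation libraries of thymic lymphoma cells were sequenced by the authors, who deposited 1 peak list for each of 7 antibodies; the 2 input libraries were not analysed here. The submitters' processing notes name FastQC, Bowtie2, SAMtools, MACS2 and deepTools without versions, and the builds mm10 and GRCm38; the control used and any pooling are not given in the sources used here. Fold enrichment, a linear ratio, was taken as the authors deposited it. The −log10 p and −log10 q of each peak are as deposited; every list ended at a q-value of about 0.01. A whole-number score in the deposited files, and the deposited p, entered no result. Columns were identified by layout, as the files have no header. Read depth is not given, so the precision of a single call is unknown.

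Peaks were intersected with RefSeq genes (GRCm38.p6; Python 3.11.15, pandas 2.3.3) by at least 1 bp: within 1 kb of the outermost start, over the body, and within 30 kb. Strand came from the RefSeq promoter table for 17491 genes (3 of the 6) and from textbook knowledge for Cd4, Cd8b1 and Tox. H3K4me3 lay within 1 kb of 49.6% of starts and of 7.27% of opposite ends. Percentiles are ranks within a list and are not comparable between lists of different length. Exons were not analysed here. The overlap counts were tested on simulated data. All 6 genes are described; pathway genes are named where their start calls equal those of one of the 6 in all 7 lists or are highest or lowest in H3K4me3 or H3K27me3, with a few examples where 15 matched; marker genes with equal calls were named after their values were seen. The rule for the 6 genes uses no measured value, but they and the gene lists were proposed with earlier results of these data known. Alternatives changed the window, the overlap rule, the peak thresholds and the starts used.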

Additional observations from a re-analysis of the deposited data

How the results depend on the processing

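Member counts were recomputed under 112 alternative values for 14 counts; 96 stayed within 1.5 times the reported count and 16 did not. Reading both gene ends without strand was chosen after seeing the data and moved none. At the start, taking every tabulated transcript start moved EZH2 from 1 to 3 of 6 genes and SUZ12 from 0 to 1. It also moved H3K27me3 from 1 to 2 and N-MYC from 1 to 2. The proximal start of Runx3 is in this count and not in the reported one. Further starts were tabulated for Zbtb7b and Runx3 only, and the matching share over all genes was not computed. A 2 kb window gave EZH2 at 2 genes, and a 500 bp window gave N-MYC at 0. p300 fell from 3 genes to 0 at a q-value of at most 1e-05, to 0 at a fold of at least 4, and to 0 with every list limited to 9798 peaks, since all 3 calls were weak. H3K4me3 had its summit in the window at 2 genes of 4. Over the gene and flanks, the body alone gave SUZ12 at 1, H3K27me3 at 3 and N-MYC at 2; leaving out peaks at other genes gave SUZ12 at 1 and N-MYC at 2; a fold of at least 4 gave SUZ12 at 0. No paired analysis was possible because each antibody had 1 library. Depth is unknown, so weak calls near the threshold, such as p300 at Zbtb7b, cannot be given a counting error.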
